A study of Homo sapiens with 8 samples.

Results

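The transcripts described here are those of 44 genes that carry out or control DNA replication and S phase, named by symbol as origin licensing, replication fork, polymerase and G1/S regulator genes. All 44 were found among the 60332 genes of the expression table, each as a single entry, and all 44 were among the 15372 genes that were expressed highly enough to test (2 or more of the 8 libraries at 1 FPKM or above). RNA was sequenced in SK-N-MC, an established human Ewing sarcoma cell line, in 8 libraries that form 4 groups of 2 biological replicates. The study silenced the enhancer of LOXHD1, a gene activated in Ewing sarcoma by the fusion oncoprotein EWSR1::FLI1, and compared the cells under low oxygen. Control cells carried the empty lenti-dCas9-KRAB vector, which expresses a catalytically dead Cas9 joined to a transcriptional repressor. They were kept in normoxia (control normoxia) or for 16 h in 1% O2 (control hypoxia). eKD1 and eKD2 cells carried the same repressor with 1 of 2 guides next to the GGAA repeat of that enhancer, and both were kept for 16 h in 1% O2. All cells had been infected at a multiplicity of 10 and selected with puromycin at 1 µg/ml, and each line is a polyclonal pool rather than a clone. No eKD library from normoxia was analysed here, so an effect of knockdown in normoxia could not be compared.

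A cell copies its genome once per cycle. In G1, the origin recognition complex, CDC6 and CDT1 load the ring-shaped MCM2-7 helicase onto DNA, a step called licensing, which geminin (GMNN) blocks after S phase has begun. Cyclin E with its kinase and the DBF4-dependent kinase CDC7 then fire the origins: CDC45 and GINS join the helicase, DNA polymerases are recruited, the clamp loader RFC places the PCNA clamp, and FEN1 and LIG1 join the pieces of the lagging strand. Many of these genes are transcribed at the border of G1 and S by E2F factors, whose activity the retinoblastoma protein restrains.

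LOXHD1 was measured first as a check of the labels. It stood at 156 and 169 FPKM in control normoxia, 93 and 91.1 FPKM in control hypoxia, 17.3 and 15 FPKM with eKD1 and 11.7 and 11.8 FPKM with eKD2. Its log2 change from control hypoxia was -2.44 ± 0.10 SE in eKD1 (limma adjusted p = 0.0371) and -2.87 ± 0.07 in eKD2 (adjusted p = 0.00617). All 11 Ewing sarcoma markers listed were expressed in every library. Of the other markers, CD3E (T cells), KRT5 (basal epithelium) and MYOG (skeletal muscle) were listed at 0 throughout. Other markers of the same lists were not all at 0. The sum of 4 epithelial markers was 7.55 to 13.5 FPKM, most of it EPCAM and KRT8, which were above 0 in every library. The endothelial sum reached at most 0.845 FPKM and the skeletal muscle sum 0.789 FPKM. The sum of 4 blood markers was 23.6 and 25 FPKM in control normoxia, 5.51 and 5.78 in control hypoxia, and 11.7 to 15.2 in the eKD libraries, nearly all of it PTPRC. The sum of 4 fibroblast markers, which sarcoma cells can also express, was 293 and 296 FPKM in control normoxia and 444 to 486 in the hypoxic libraries. Their part in the results was not tested. FPKM columns summed to between 865107 and 1041457, the low sums being those of control normoxia, and duplicates correlated across genes at r = 0.954 to 0.963 on the log2 scale.

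FPKM divides by transcript length, so levels of different genes can be set side by side. In every library MCM4 was the most abundant of the 44 transcripts and E2F8 the least. MCM4 stood at 1232 and 1223 FPKM in control normoxia, 1177 and 1168 FPKM in control hypoxia, 1137 and 1102 FPKM with eKD1 and 968 and 936 FPKM with eKD2. The other helicase subunits lay between 90.2 FPKM (MCM6 in control normoxia) and 299 FPKM (MCM5 in control normoxia), although the 6 proteins form a ring of 1 copy each. E2F8, a repressor of E2F targets, stood at 7.69 and 7.05 FPKM in control normoxia, 7.39 and 6.87 FPKM in control hypoxia, 6.94 and 6.32 FPKM with eKD1 and 8.37 and 7.39 FPKM with eKD2, and its groups overlapped in both hypoxia and knockdown comparisons. Together the 44 transcripts took 0.595% to 0.602% of the FPKM total in control normoxia, 0.487% and 0.498% in control hypoxia, 0.506% and 0.51% with eKD1, and 0.476% and 0.45% with eKD2. These shares also move with the column totals, which were higher in hypoxia. Relative to the mean of control normoxia, the median member stood at 97.3% in control hypoxia, 91.9% in eKD1 and 86.7% in eKD2. The members spread widely around these medians, from 47.9% to 170.1% in control hypoxia, from 67.8% to 151% in eKD1 and from 51.5% to 158% in eKD2. RNA was taken from whole cultures, so fewer cells in S phase and less RNA per cell cannot be told apart.

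**Figure D1:**
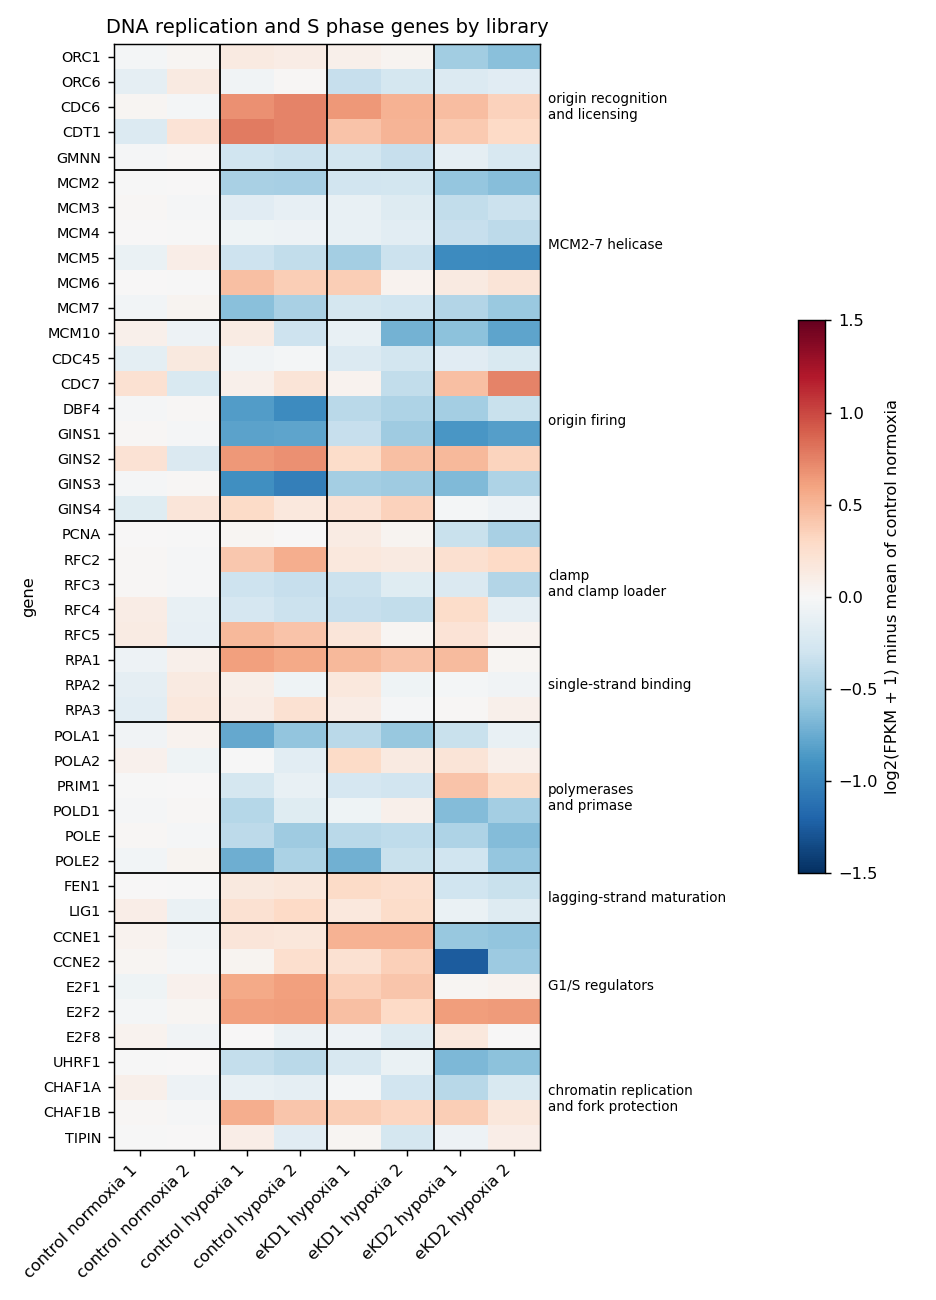
Each row is 1 of the 44 genes, grouped by role, and each column 1 of the 8 libraries. Colour gives log2(FPKM + 1) minus the mean of the control normoxia libraries, red for higher and blue for lower. CDC6, CDT1, E2F1, E2F2 and RPA1 are red in control hypoxia, where DBF4, GINS1 and GINS3 are deep blue. The rows of MCM5, CCNE1 and ORC1 are each bluer in eKD2 than in the other groups.

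Promoters were read from RefSeq (GRCh38.p14), 250 bases before to 50 after the annotated start, for 37 of the 44 genes. The table held no entry used here for MCM4, MCM5, GINS4, RPA2, RPA3, CCNE2 and E2F8. The letters searched as E2F words were TTTCCCGC, TTTGGCGC, TTTCGCGC and TTTGCCGC on either strand. They occurred in 19 of the 37 promoters (51.4%), against 3.31% of all 35116 promoters in the table. The 37 are a single promoter per gene, all of expressed genes. The 35116 are every entry, whether or not the gene was expressed here, so the sets are not matched. The CCAAT box (CCAAT, either strand) occurred in 54.1% of the 37 and 34.6% of all promoters, the E-box CACGTG in 16.2% and 7.26%, and the hypoxia response element core (ACGTG or GCGTG, the first of which lies inside the E-box) in 67.6% and 48.4%. TTTGAA or TTCGAA, the cell cycle homology region of G2/M genes, occurred in 5.41% of the 37 and 16.4% of all promoters. A match is only a run of letters and shows no binding. The promoters of 7 genes whose changes are described next are shown with the E2F words in capitals and with positions on GRCh38.p14. They were picked because CDC6, CDT1, E2F1 and MCM6 rose in hypoxia, MCM2 fell there, and CCNE1 and PCNA fell in eKD2.
CDC6, chr17:40287629-40287928, plus strand: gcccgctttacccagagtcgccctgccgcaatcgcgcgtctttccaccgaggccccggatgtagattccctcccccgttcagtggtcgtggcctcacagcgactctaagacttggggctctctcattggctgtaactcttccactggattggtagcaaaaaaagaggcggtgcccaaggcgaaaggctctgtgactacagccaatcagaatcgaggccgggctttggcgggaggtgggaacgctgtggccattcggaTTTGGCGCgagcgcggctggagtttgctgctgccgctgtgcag
CDT1, chr16:88803539-88803838, plus strand: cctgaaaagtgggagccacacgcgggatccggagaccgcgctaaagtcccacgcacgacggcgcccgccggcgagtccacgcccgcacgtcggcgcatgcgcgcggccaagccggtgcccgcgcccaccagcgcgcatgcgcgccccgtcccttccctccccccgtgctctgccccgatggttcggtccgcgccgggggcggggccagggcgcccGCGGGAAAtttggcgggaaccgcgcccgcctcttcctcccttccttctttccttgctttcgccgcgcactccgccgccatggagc
E2F1, chr20:33686336-33686635, minus strand: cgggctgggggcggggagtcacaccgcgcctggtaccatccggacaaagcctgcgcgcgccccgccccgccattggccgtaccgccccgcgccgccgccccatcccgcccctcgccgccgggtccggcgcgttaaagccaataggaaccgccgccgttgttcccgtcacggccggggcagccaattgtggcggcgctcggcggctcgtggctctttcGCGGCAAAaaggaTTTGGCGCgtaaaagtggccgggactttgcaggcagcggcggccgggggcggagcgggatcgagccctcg
MCM6, chr2:135876394-135876693, minus strand: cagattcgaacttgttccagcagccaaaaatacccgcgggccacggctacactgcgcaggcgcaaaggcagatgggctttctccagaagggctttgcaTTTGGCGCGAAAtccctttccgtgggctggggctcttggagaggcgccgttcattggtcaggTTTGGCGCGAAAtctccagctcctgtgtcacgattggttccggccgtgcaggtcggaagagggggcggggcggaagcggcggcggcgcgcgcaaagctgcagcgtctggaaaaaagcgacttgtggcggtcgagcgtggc
MCM2, chr3:127598161-127598460, plus strand: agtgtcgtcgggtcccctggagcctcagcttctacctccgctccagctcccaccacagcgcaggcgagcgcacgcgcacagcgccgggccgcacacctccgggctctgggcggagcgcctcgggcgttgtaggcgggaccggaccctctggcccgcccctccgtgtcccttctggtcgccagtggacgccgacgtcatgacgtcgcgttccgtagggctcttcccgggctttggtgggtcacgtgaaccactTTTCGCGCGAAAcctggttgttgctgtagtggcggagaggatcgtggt
PCNA, chr20:5126573-5126872, minus strand: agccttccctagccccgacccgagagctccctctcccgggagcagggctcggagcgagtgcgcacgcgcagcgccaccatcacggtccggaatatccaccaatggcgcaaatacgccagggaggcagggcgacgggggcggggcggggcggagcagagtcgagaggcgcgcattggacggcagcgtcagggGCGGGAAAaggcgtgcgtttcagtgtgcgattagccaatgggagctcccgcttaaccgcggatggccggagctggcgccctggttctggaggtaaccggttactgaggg
CCNE1, chr19:29811741-29812040, plus strand: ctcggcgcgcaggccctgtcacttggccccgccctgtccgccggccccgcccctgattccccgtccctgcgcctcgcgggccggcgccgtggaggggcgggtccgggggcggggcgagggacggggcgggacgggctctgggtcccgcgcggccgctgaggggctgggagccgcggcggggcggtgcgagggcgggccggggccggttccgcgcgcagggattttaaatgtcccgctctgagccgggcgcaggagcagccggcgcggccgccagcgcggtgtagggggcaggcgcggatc

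The MCM6 promoter held 4 matches, which form the run TTTGGCGCGAAA at 2 places, each read as a word on both strands. MCM2 held the similar run TTTCGCGCGAAA just after its start. E2F1 held 2 words before its start, CDC6, CDT1 and PCNA held 1 each, and the GC-rich window of CCNE1 held none of the 4 words. The words were present in promoters of genes that moved in opposite directions: in 5 of the 9 that rose in hypoxia, in 9 of the 11 that fell and in 5 of the 17 that were not called. In eKD2 they were present in 4 of the 7 promoters of genes that fell and in 15 of the other 30.

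The first comparison asked how 16 h of hypoxia altered the replication genes of control cells. The genes did not move as a block. Of the 5 licensing genes, CDC6 and CDT1 rose and GMNN fell, and of the 5 G1/S regulators E2F1 and E2F2 rose, these 4 risers standing at 151% to 170.1% of their normoxic level. Of the 8 origin firing genes, DBF4, GINS1 and GINS3 fell, GINS3 to 47.9%, and of the 6 polymerase and primase genes POLA1, POLE and POLE2 fell. Of the 44 members, 9 rose (20.5%) and 11 fell (25%) at a limma adjusted p under 0.05, and 24 were not called. Over all 15372 genes tested, 16.2% rose and 16% fell, so the share of members that rose was close to that background and the share that fell somewhat above it. The median change on the log2 scale was -0.04 over the members and 0.01 over all genes.

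Both loaders of the helicase rose. CDC6 (GRCh37 chr17:38444131-38460909, plus strand), the ATPase that brings the helicase to origins, was measured at 103 and 99.1 FPKM in control normoxia and 163 and 170.1 FPKM in control hypoxia. Both hypoxic libraries lay above both normoxic ones, a log2 change of 0.72 ± 0.05 SE (adjusted p = 0.00809). CDT1 (GRCh37 chr16:88870197-88875666, plus strand), its partner, was measured at 28.9 and 38.4 FPKM in control normoxia and 57.9 and 56.5 FPKM in control hypoxia. The groups did not overlap although the normoxic libraries differed from each other, and the log2 change was 0.76 ± 0.16 (adjusted p = 0.036). Geminin, which inhibits CDT1, fell, from 103 and 105 FPKM to 84.5 and 82.9 FPKM (-0.31 ± 0.05, adjusted p = 0.0242). ORC1 and ORC6, subunits of the origin recognition complex, were not called, with log2 changes of 0.13 and -0.02.

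The 6 helicase subunits did not share a direction. MCM6 (GRCh37 chr2:136597196-136634013, minus strand) rose, from 91.3 and 90.2 FPKM in control normoxia to 125 and 117 FPKM in control hypoxia (0.41 ± 0.06 SE, adjusted p = 0.0181). MCM2 (GRCh37 chr3:127317253-127341279, plus strand) fell, from 268 and 271 FPKM to 192 and 191 FPKM (-0.49 ± 0.04, adjusted p = 0.00852). The duplicates of MCM2 almost coincided in both groups, and the gap between the groups was far wider than their spread. MCM7 also fell, from 213 and 227 FPKM to 142 and 157 FPKM (-0.55 ± 0.07, adjusted p = 0.0158). MCM5 read 261 and 299 FPKM in control normoxia and 224 and 216 FPKM in control hypoxia and just missed the threshold (-0.34 ± 0.08, adjusted p = 0.0506). MCM3 and MCM4 were not called, with changes of -0.15 ± 0.05 and -0.07 ± 0.03. The normoxic libraries lay above the hypoxic ones for both.

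Among the factors that turn a loaded helicase into a running fork, 3 fell and none rose. GINS3, a subunit of the GINS complex, fell furthest of all members, from 15.8 and 16.2 FPKM to 7.99 and 7.36 FPKM (-0.97 ± 0.11 SE, adjusted p = 0.0119). GINS1, of the same complex, fell from 31.5 and 30.9 FPKM to 17.5 and 17.6 FPKM (-0.80 ± 0.08, adjusted p = 0.01). DBF4, the activating subunit of the CDC7 kinase, fell from 55.9 and 57.7 FPKM to 31.4 and 29 FPKM (-0.89 ± 0.08, adjusted p = 0.00868). In these 3 genes each hypoxic library was well below each normoxic one. GINS2 pointed the other way but was not called: it read 20.3 and 14.8 FPKM in control normoxia and 27.9 and 28.5 FPKM in control hypoxia (0.67 ± 0.18, adjusted p = 0.0584). CDC7, CDC45, MCM10 and GINS4 had overlapping groups, with changes of 0.14, -0.04, -0.09 and 0.22.

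All 6 polymerase and primase genes had lower means in hypoxia, and 3 of them were called. POLA1, the catalytic subunit of polymerase alpha, which starts each new strand, fell from 24.5 and 26.2 FPKM to 14.5 and 16.5 FPKM (-0.68 ± 0.11 SE, adjusted p = 0.022). POLE2, an accessory subunit of the leading-strand polymerase epsilon, fell from 36.3 and 38.4 FPKM to 22.1 and 26.5 FPKM (-0.61 ± 0.12, adjusted p = 0.0326). The catalytic subunit POLE fell from 130.1 and 128 FPKM to 98.1 and 88.5 FPKM (-0.46 ± 0.07, adjusted p = 0.0209). POLD1, PRIM1 and POLA2 were not called, with changes of -0.30, -0.19 and -0.08. The clamp loader was divided. RFC2 rose by 0.48 ± 0.07 and RFC5 by 0.45 ± 0.10 on the log2 scale (adjusted p = 0.0173 and 0.0425), while RFC3 changed by -0.33 ± 0.07 (adjusted p = 0.033), although all 3 proteins belong to the same pentamer. RFC4 was not called (-0.28).

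RPA1, the large subunit of the protein that coats single-stranded DNA, rose from 73.6 and 81.8 FPKM to 119.6 and 116 FPKM (0.60 ± 0.07 SE, adjusted p = 0.0145). Its partners RPA2 and RPA3 had overlapping groups (0.01 and 0.17). PCNA, the sliding clamp, read 362 and 357 FPKM in control normoxia and 366 and 362 FPKM in control hypoxia and its groups overlapped (0.02 ± 0.04). With the FPKM totals of all libraries set equal, however, PCNA was called lower (-0.22, adjusted p = 0.0238). FEN1 and LIG1 were not called, with changes of 0.16 and 0.26. Of the chromatin genes, CHAF1B, a subunit of the histone chaperone CAF-1, rose (0.48 ± 0.09, adjusted p = 0.0282), and UHRF1, which helps to copy DNA methylation, fell (-0.38 ± 0.07, adjusted p = 0.0275). CHAF1A, the other large CAF-1 subunit, and TIPIN, a fork protection factor, were not called (-0.13 and -0.04).

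The regulators upstream of these genes included the activators E2F1 and E2F2. E2F1 (GRCh37 chr20:32263283-32274191, minus strand) rose from 48.5 and 53.3 FPKM to 75.7 and 78.4 FPKM (0.59 ± 0.08 SE, adjusted p = 0.015). E2F2 rose from 18.7 and 19.3 FPKM to 29.6 and 29.8 FPKM (0.62 ± 0.08, adjusted p = 0.0148). Every hypoxic library lay above every normoxic one for both genes. CCNE1 and CCNE2, the E-type cyclins that drive entry into S phase, were not called (0.18 ± 0.09 and 0.15 ± 0.10), nor was E2F8 (-0.04). The split between members that rose and fell depended on the scaling between libraries. With equal FPKM totals the median of all genes moved to -0.19 and that of the members to -0.26. Then 4 members rose (CDC6, E2F1, E2F2 and RPA1) and 19 fell, while 1566 of all 15372 genes rose and 3944 fell. ORC1, CDC7, GINS4, PCNA, RPA2, RPA3, FEN1, CCNE1 and CCNE2 changed sign. Leaving out any 1 of the 4 libraries left 0 calls among the members and among all genes at this threshold.

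**Figure D2:**
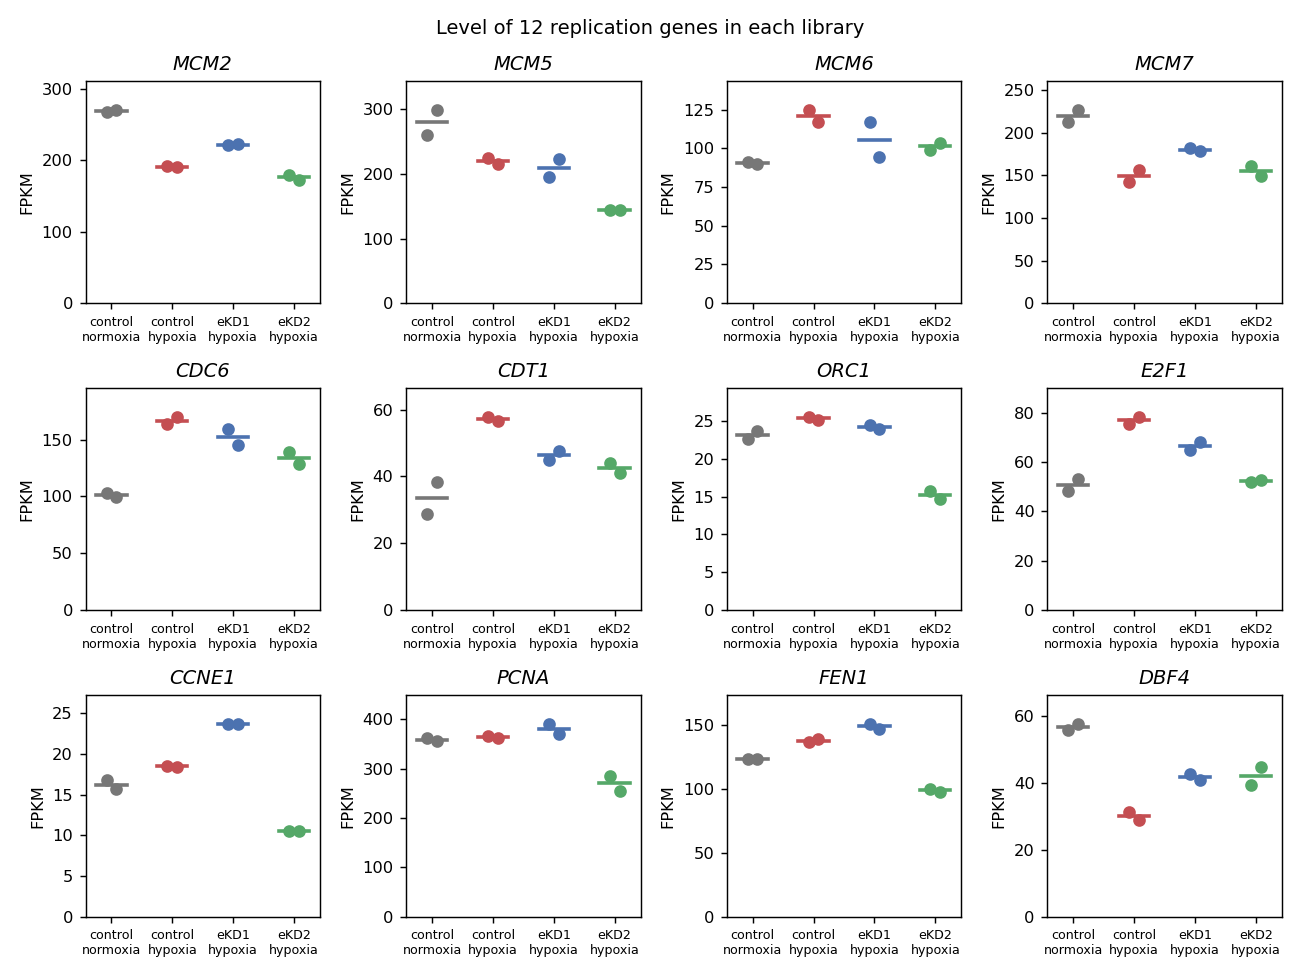
FPKM of 12 replication genes on linear axes from 0, with 1 point per library, 2 libraries per group, and a bar at the group mean. CDC6, CDT1, MCM6 and E2F1 are higher in control hypoxia than in control normoxia, MCM2, MCM7 and DBF4 are lower, and CCNE1 in eKD2 (10.6 and 10.5 FPKM) lies below every other library.

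The second comparison asked what the first enhancer guide changed under hypoxia. No member passed the test in eKD1 against control hypoxia. At an unadjusted p under 0.05, 7 members were higher and 7 lower, against 11.7% and 10% of all genes in the same directions. Limma with a shared fit of all 8 libraries called DBF4 higher and RFC2 lower, and 761 of all 15372 genes in either direction. In the fit of eKD1 and control hypoxia alone, few genes of any kind were called, 0.013% higher and 0.052% lower. The median change over the members was -0.06 on the log2 scale. The members with the smallest p-values were DBF4, MCM2 and RFC2. DBF4 read 31.4 and 29 FPKM in control hypoxia and 42.6 and 40.9 FPKM in eKD1 (0.46 ± 0.08 SE, adjusted p = 0.12). MCM2 read 192 and 191 FPKM and 221 and 222 FPKM (0.21 ± 0.04, adjusted p = 0.129). RFC2 read 217 and 239 FPKM and 182 and 179.6 FPKM (-0.33 ± 0.06, adjusted p = 0.13). None of these 3 genes passed the threshold. Their groups did not overlap, which follows from picking them by p-value and is no further evidence of a change.

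Among the licensing and helicase genes in eKD1, CDC6 read 159 and 146 FPKM, CDT1 45 and 47.8 FPKM and GMNN 85.9 and 81.8 FPKM. The changes of CDC6 and CDT1 from control hypoxia were -0.13 ± 0.07 and -0.30 ± 0.07, and the GMNN groups overlapped. MCM7 read 182 and 179 FPKM (0.27 ± 0.07) and MCM6 117 and 94.3 FPKM (-0.20 ± 0.13). MCM3 and MCM5 overlapped with control hypoxia, and MCM4 read 1137 and 1102 FPKM (-0.07 ± 0.04). CCNE1 read 23.7 and 23.6 FPKM against 18.5 and 18.4 FPKM in control hypoxia (0.34 ± 0.08, adjusted p = 0.15), and CCNE2 overlapped (0.15 ± 0.11). E2F1, E2F2 and E2F8 had differences of -0.21 ± 0.06, -0.25 ± 0.09 and -0.09 ± 0.13, and PCNA one of 0.07 ± 0.05, none of them called.

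The same question was asked of the second guide. In eKD2, cyclin E1, the origin recognition subunit ORC1, the helicase subunits MCM5 and MCM4, E2F1, CDT1, PCNA and both lagging-strand genes, FEN1 and LIG1, fell below control hypoxia. Of the 44 members, 0 rose and 9 fell (20.5%) at an adjusted p under 0.05, against 5.8% and 3.81% of all genes tested. At an unadjusted p under 0.05, 5 members were higher and 20 lower, as were 3012 and 2036 of all 15372 genes. The shared fit of all 8 libraries called 2 members higher and 10 lower, and 2601 of all 15372 genes in either direction. The median change was -0.19 on the log2 scale over the members and 0.05 over all genes. These values use the same control hypoxia libraries as the eKD1 values and the hypoxia values.

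CCNE1 (GRCh37 chr19:30302898-30315219, plus strand) fell furthest of the genes called: it was 18.5 and 18.4 FPKM in control hypoxia and 10.6 and 10.5 FPKM in eKD2 (-0.76 ± 0.09 SE, adjusted p = 0.0339). The duplicates nearly coincided in both groups. CCNE2 had the lowest fitted change of all members but was not called: it was 49.9 and 58.2 FPKM in control hypoxia and 19.8 and 32.9 FPKM in eKD2 (-1.05 ± 0.27, adjusted p = 0.0952). Its eKD2 libraries differed from each other by a larger ratio than those of any member called. CCNE2 shares 37.1% of its exonic bases with INTS8 on the opposite strand, which averaged 159 FPKM, and reads of the overlap cannot be told apart without strand. E2F1 fell from 75.7 and 78.4 FPKM to 52.1 and 52.7 FPKM (-0.55 ± 0.06, adjusted p = 0.0305). E2F2 was not called, at 29.9 and 30.2 FPKM against 29.6 and 29.8 FPKM (0.02 ± 0.07), and E2F8 overlapped (0.13 ± 0.13).

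ORC1, the subunit of the origin recognition complex whose level varies over the cycle, fell from 25.6 and 25.2 FPKM to 15.8 and 14.7 FPKM (-0.70 ± 0.09 SE, adjusted p = 0.0347). CDT1 fell from 57.9 and 56.5 FPKM to 44.2 and 41.1 FPKM (-0.42 ± 0.07, adjusted p = 0.0488). CDC6 was 139 and 128 FPKM, below control hypoxia in both libraries, and missed the threshold (-0.32 ± 0.06, adjusted p = 0.0611). GMNN was not called (0.12 ± 0.06). MCM5 fell from 224 and 216 FPKM to 145 and 144 FPKM (-0.61 ± 0.05, adjusted p = 0.0273), and MCM4 from 1177 and 1168 FPKM to 968 and 936 FPKM (-0.30 ± 0.03, adjusted p = 0.0334). The MCM5 duplicates almost coincided in eKD2, at the lowest level of that gene in the series. MCM6, MCM3 and MCM2 were not called, with changes of -0.25 ± 0.06, -0.20 ± 0.05 and -0.12 ± 0.05, and the MCM7 groups overlapped (0.06 ± 0.08).

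PCNA fell from 366 and 362 FPKM to 286 and 255 FPKM (-0.43 ± 0.07 SE, adjusted p = 0.0469). FEN1, the flap endonuclease that trims Okazaki fragments, fell from 137 and 139 FPKM to 100.3 and 97.5 FPKM (-0.47 ± 0.05, adjusted p = 0.0305). LIG1, the ligase that seals them, fell from 156 and 163 FPKM to 124 and 116 FPKM (-0.41 ± 0.06, adjusted p = 0.0421). For these 3 genes every eKD2 library lay below every control hypoxia library. Of the 8 origin firing genes, 3 had positive changes in eKD2 and 5 negative ones, the lowest being -0.61 for MCM10. Of the 6 polymerase and primase genes, 4 had positive and 2 negative changes. None of these genes was called. PRIM1, the primase catalytic subunit, was nearest to the threshold, at 61 and 68.1 FPKM in control hypoxia and 99.5 and 89.4 FPKM in eKD2 (0.54 ± 0.09, adjusted p = 0.0522). PRIM1 shares 4.2% of its exonic bases with NACA, a transcript of 1553 FPKM on the same strand. DBF4, CDC7, POLA1 and GINS3 had changes of 0.46 ± 0.10, 0.46 ± 0.13, 0.46 ± 0.13 and 0.41 ± 0.13.

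Each of the 9 members called in eKD2 kept its direction under every alternative. Leaving out any 1 of the 4 libraries or adding a replicate block left 0 of all 15372 genes called, and dropping the variance trend left 28, none of them a member, so the loss of calls in these fits is not particular to the members. With equal FPKM totals the median of all genes moved to 0.14 and that of the members to -0.09. Then 2 members rose and 5 fell, ORC1, MCM5, FEN1, CCNE1 and E2F1 remaining, while 1478 of all 15372 genes rose and 430 fell.

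**Figure D3:**
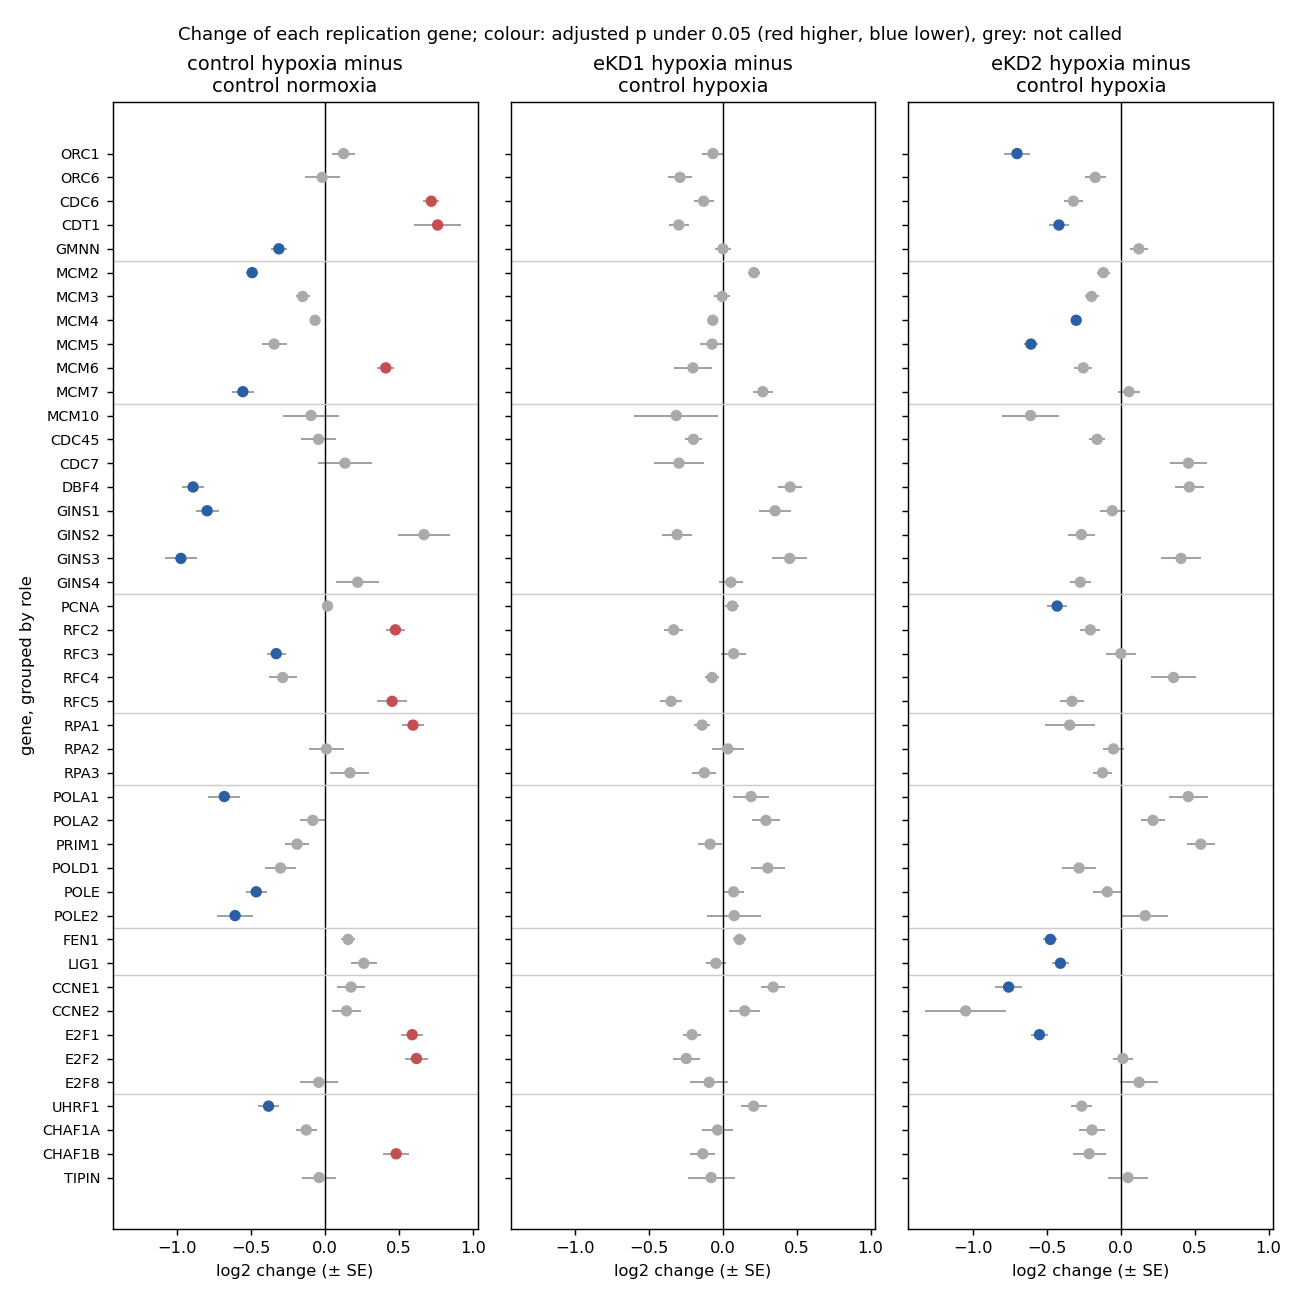
Log2 change with its standard error for each of the 44 genes in 3 comparisons, 2 libraries against 2, genes grouped by role. Red and blue points were called higher and lower at a limma adjusted p under 0.05 and grey points were not. Hypoxia has 9 red and 11 blue points, eKD1 has none, and eKD2 has 9 blue and 0 red points.

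The eKD1 and eKD2 libraries were also compared directly, because the same enhancer was targeted in both. No member was called at an adjusted p under 0.05, where 0.286% of all genes passed as higher in eKD2 and 0.117% as lower. At an unadjusted p under 0.05, 2 members were higher and 16 lower in eKD2, against 13.8% and 9.73% of all genes. With 1 spread estimated over all 8 libraries, 1 member was called higher and 12 lower, and 1391 of all 15372 genes were called in either direction. CCNE1 had the smallest p: 23.7 and 23.6 FPKM in eKD1 against 10.6 and 10.5 FPKM in eKD2, a log2 difference of -1.10 ± 0.09 SE (adjusted p = 0.0597). FEN1 read 151 and 147 FPKM in eKD1 against 100.3 and 97.5 FPKM in eKD2 (-0.59 ± 0.05, adjusted p = 0.0637). PRIM1 read 61.4 and 60.0 FPKM in eKD1 against 99.5 and 89.4 FPKM in eKD2 (0.63 ± 0.08, adjusted p = 0.0784). These 3 genes were picked for the smallest p-values, so gaps that are wide relative to the duplicates follow from that choice. The shared fit called each of them. All 6 helicase subunits had lower means in eKD2, from -0.53 ± 0.08 for MCM5 to -0.05 ± 0.13 for MCM6, and 0 of the 6 were called (MCM2, MCM4 and MCM5 in the shared fit). PCNA differed by -0.49 ± 0.08 (adjusted p = 0.0894), E2F1 by -0.34 ± 0.06 and CCNE2 by -1.20 ± 0.27, while CDC6, CDT1, GMNN, E2F2 and E2F8 differed by -0.19, -0.12, 0.12, 0.26 and 0.22. LOXHD1 itself differed by -0.43 ± 0.12 between the eKD lines (adjusted p = 0.162).

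The rest of the replication and cell cycle programme was read from lists of genes of known function. Of 10 genes that make or break down deoxynucleotides, 4 rose in hypoxia (40%) and 0 fell, against 16.2% and 16% of all genes. The other 6 were not called, 3 of them with negative changes. TK1, thymidine kinase, rose from 77.9 and 91.5 FPKM to 227 and 214 FPKM (1.38 ± 0.10 SE, adjusted p = 0.00809). TYMS, thymidylate synthase, RRM2, a subunit of ribonucleotide reductase, and DUT, which clears dUTP, rose by 0.49, 0.38 and 0.26 on the log2 scale. In eKD2, 0 of the 10 rose and 3 fell (30%) against control hypoxia, where 5.8% and 3.81% of all genes did. Those 3 were RRM2 (503 and 469 to 357 and 335 FPKM, -0.49 ± 0.06), TK1 (-0.48 ± 0.06) and DUT (-0.32 ± 0.05), with adjusted p of 0.0351, 0.0365 and 0.0426.

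Of 34 other replication genes, 4 rose (11.8%, below the 16.2% of all genes) and 10 fell (29.4%, against 16%) in hypoxia. In eKD2, 3 rose (8.82%, against 5.8% of all genes) and 6 fell (17.6%, against 3.81%). The histone chaperone paralogues parted: ASF1B rose from 30.5 and 31.1 FPKM to 76.3 and 71.5 FPKM (1.23 ± 0.07 SE, adjusted p = 0.00679), and ASF1A fell from 24.9 and 28.5 FPKM to 8.22 and 11.4 FPKM (-1.37 ± 0.19, adjusted p = 0.0169). TOP1, a topoisomerase that relaxes overwound DNA ahead of the fork, fell (-1.03 ± 0.06). ORC5, of the origin recognition complex, also fell, from 24.7 and 24.2 FPKM to 11.9 and 11.6 FPKM (adjusted p = 0.00898). In eKD2, ORC5 was higher than in control hypoxia, at 23.4 and 24.2 FPKM against 11.9 and 11.6 FPKM (0.96 ± 0.09, adjusted p = 0.0284), as was CHTF8, of an alternative clamp loader (0.95 ± 0.10, adjusted p = 0.0305). ASF1B was lower, at 41.4 and 43.6 FPKM (-0.78 ± 0.07, adjusted p = 0.0284), as was RECQL4, an initiation helicase (-0.65 ± 0.07, adjusted p = 0.0314).

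Of 32 other genes of G1/S control, 31 were tested (CDKN2B was not), and 9 rose (29%) and 8 fell (25.8%) in hypoxia, against 16.2% and 16% of all genes. The CDK inhibitor CDKN1A (p21) rose from 1.27 and 1.55 FPKM to 6.81 and 7.02 FPKM (1.72 ± 0.15 SE, adjusted p = 0.009), and CDKN1C (p57) from 5.66 and 4.88 FPKM to 15.1 and 16.2 FPKM (1.41 ± 0.13, adjusted p = 0.00944). E2F4, a repressor E2F, fell (-1.20 ± 0.11), and so did the activator E2F3 (-0.99 ± 0.08). Thus of the 3 activator E2F genes, E2F1 and E2F2 rose and E2F3 fell. In eKD2, 4 of the 31 rose (12.9%, against 5.8% of all genes) and 1 fell (3.23%, close to the 3.81% of all genes). E2F5 (0.67 ± 0.06), the CDK inhibitor CDKN1B (0.57 ± 0.08) and cyclin A2, CCNA2 (0.47 ± 0.07), rose, and CDKN2A (-0.61 ± 0.06) fell, with adjusted p of 0.0293, 0.0419, 0.0435 and 0.0305.

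Most of the listed genes of G2 and mitosis fell in hypoxia. Of 23 such genes, 0 rose and 17 fell (73.9%, against 16% of all genes), with a median log2 change of -0.66. CCNB1, cyclin B1, fell from 286 and 307 FPKM to 104 and 109 FPKM (-1.47 ± 0.06 SE, adjusted p = 0.00641), and PLK1, a mitotic kinase, changed by -1.31 ± 0.09 (adjusted p = 0.00809). CDC20, an activator of the anaphase-promoting complex, changed by -1.25 ± 0.06, and CENPE, a kinetochore motor whose duplicates were unlike, by -2.13 ± 0.46, with adjusted p of 0.00653 and 0.0394. In eKD2, 5 of the 23 rose (21.7%, against 5.8% of all genes) and 0 fell relative to control hypoxia, with a median of 0.33. PLK1 read 94.2 and 97.9 FPKM against 60.4 and 53.2 FPKM in control hypoxia (0.75 ± 0.09, adjusted p = 0.033), CDC20 111 and 114 FPKM against 70.6 and 68 FPKM (0.69 ± 0.05, adjusted p = 0.0273), and TPX2 and CCNB1 rose by 0.53 and 0.52. CCNB1 in eKD2 (153 and 154 FPKM) was still below its normoxic level (286 and 307 FPKM). In eKD1, 0 genes of these 4 lists were called by limma. At an unadjusted p under 0.05, 8 of the 23 G2/M genes were higher and 1 lower there. The counts were 4 and 7 for the 34 other replication genes and 6 and 2 for the 31 other G1/S genes. For the 10 deoxynucleotide genes they were 0 and 3. Over all genes, 11.7% were higher and 10% lower at that threshold. Between eKD2 and eKD1, 0 genes of the 4 lists were called either. At an unadjusted p under 0.05 the same lists, in that order, held 3 higher and 1 lower, 6 and 9, 5 and 7, and 1 and 2. Over all genes, 13.8% were higher and 9.73% lower.

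**Figure D4:**
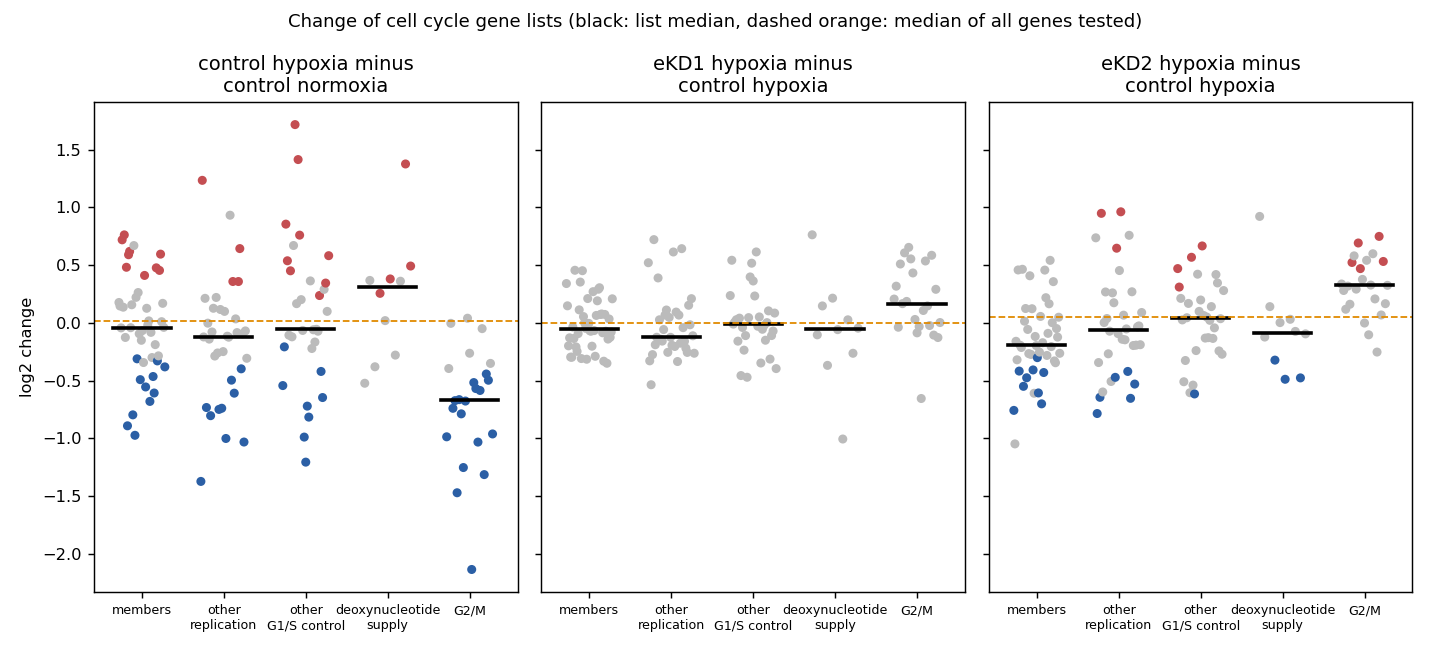
Log2 change of every tested gene of the 44 members and of 4 other cell cycle lists in 3 comparisons. Each point is 1 gene, red or blue where called higher or lower at a limma adjusted p under 0.05, with the list median in black and the median of all genes dashed. In hypoxia the G2/M list lies lowest (median -0.66), and in eKD2 the members have a median of -0.19 and the G2/M list one of 0.33.

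Set against normoxia, the 3 hypoxic groups show how far single genes travelled. CCNE1 stood at 114% of its normoxic mean in control hypoxia, 146% in eKD1 and 64.8% in eKD2. E2F1 stood at 151%, 131% and 103%, so that in eKD2 its libraries (52.1 and 52.7 FPKM) lay within the range of control normoxia (48.5 and 53.3 FPKM). MCM5 stood at 78.6%, 74.9% and 51.5%, the lowest of the 44 in eKD2. E2F2 stood at 156%, 131% and 158%, the highest of the 44 in eKD2. DBF4 stood at 53.2%, 73.6% and 74.1%, and GINS3 at 47.9%, 67.8% and 65.8%. These percentages share the normoxic mean and are given as a description. The 44 genes lie on 19 chromosomes of GRCh37, with at most 5 on any 1 of them. Exons of 13 members overlap those of another expressed protein-coding gene, by over 20% of exonic bases only in CCNE2.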

How the data were processed

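RNA of the 8 libraries (4 groups of 2, taken from the sample titles) was sequenced from poly-A selected, single-end libraries prepared with a kit that does not mark strand. The authors aligned the reads to GRCh37 with STAR, assembled transcripts with cufflinks and deposited FPKM values, fragments per length of transcript and mapped reads, computed with cuffnorm in 1 table. The submitters' processing notes also name FastQC, DESeq2 and hg19. The scaling between libraries is not given in the sources used here. The table holds no counts, so the authors' count test could not be run, absolute depth is unknown and no interval or floor was computed. Relative depth was estimated from the most frequent ratio of values between control hypoxia replicate 1 and each library, over genes low in every library. It ranged from 55.7% (control normoxia, replicate 2) to 100% (control hypoxia, replicate 1, the reference). Its part in the results was not tested.

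Values were analysed as log2(FPKM + 1), which understates changes of low genes. Genes at 1 FPKM or more in 2 or more libraries (15372) were fitted with limma 3.58.1 in R 4.3.3, each comparison of 2 against 2 libraries on its own, letting the variance follow the mean. Two-sided p-values were adjusted by Benjamini-Hochberg across those 15372 genes. Called means an adjusted p below 0.05, and every adjusted p in the text is from limma. Errors are standard errors (SE) of the log2 change. The fit was tested on simulated data. Replicates are described by the authors as biological duplicates, without saying whether cultures were separate infections, so p-values measure the spread between these libraries.

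The members and lists were chosen with earlier results of these data known. Genes named in full were MCM2 to MCM7, CDC6, CDT1, GMNN, PCNA, CCNE1, CCNE2, E2F1, E2F2 and E2F8, the 5 largest rises and falls called per comparison, or the 3 smallest p-values where none was called, and up to 4 called genes per other list. Other members are given to account for all 44 in hypoxia, while in the other comparisons some members are not given singly. Gene positions came from GENCODE 44 lifted to GRCh37 and promoters from RefSeq (GRCh38.p14). The alternatives tried were equal FPKM totals or median-of-ratios scaling, no filter or a mean of at least 5 FPKM, a pseudocount of 0.1 FPKM, a fit sharing its spread over all libraries, no variance trend, a replicate block, and leaving out each library.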

Additional observations from a re-analysis of the deposited data

How the results depend on the processing

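A pseudocount of 0.1 FPKM changed no call among the 44 members. Without a filter, 7 members fell in hypoxia and 5 in eKD2, and 2 were lower in eKD2 than in eKD1. Of all 27155 genes then tested, 3024, 853 and 260 were called in either direction, in the same order. At a mean of at least 5 FPKM, 1 member rose in eKD2 and 1 was lower in eKD2 than in eKD1. Of the 10808 genes then tested, 1780 and 105 were called in either direction. Median-of-ratios rescaling moved the median of the members in eKD2 to -0.26. With equal FPKM totals, 4 members rose and 19 fell in hypoxia (median -0.26, PCNA -0.22), where 1566 of all genes rose and 3944 fell. The eKD1 median became 0.015. In eKD2, 2 members rose and 5 fell (median -0.089), where 1478 of all genes rose and 430 fell. A shared fit of all 8 libraries called 1 member higher and 1 lower in eKD1 and 2 higher in eKD2, and between eKD2 and eKD1 it called 1 higher and 12 lower. Of all 15372 genes it called 761 in eKD1, 2601 in eKD2 and 1391 between eKD2 and eKD1. Without the variance trend, 0 members fell in eKD2, where 28 of all genes were called. The cause of these shifts was not tested.

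With a replicate block (the number in the sample titles), 4 members rose and 7 fell in hypoxia and 0 fell in eKD2, where 0 of 15372 genes were called. Over all genes tested, libraries with the same number did not deviate together (r from -0.05 to 0.04). Noise of low genes can hide a shared deviation, so this cannot tell whether the numbers pair the samples. Leaving out 1 library at a time left 0 members called higher and 0 lower in every comparison, and 0 of 15372 genes, since 3 libraries leave little information on the spread. The median of the members then ranged from -0.069 to 0.015 in hypoxia, from -0.19 to -0.16 in eKD2 and from -0.17 to -0.075 between eKD2 and eKD1, and stayed negative in eKD1.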
